A study of Mus musculus with 4 samples.

Results

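The SR splicing factors are 7 genes of the 53465 mouse gene IDs in the footprint count table: Srsf1, Srsf2, Srsf3, Srsf5, Srsf6, Srsf7 and Tra2b. They were picked out by a fixed list of Ensembl IDs; the list uses no measured value as a criterion, but it was drawn up with earlier results of these data known. Ribosome footprints, the RNA fragments that ribosomes shield from nuclease, were counted per gene in MLE-12 cells, a lung epithelial line from a mouse transgenic for SV40 large T antigen under the surfactant protein C promoter that stands in for alveolar type 2 cells. Control cells (replicates 1 and 2, at 0 µM and 12 h) were compared with cells given 5 µM 1-nitropyrene for 12 h (replicates 2 and 3). The compound is a nitrated polycyclic aromatic found in diesel exhaust. Both groups were washed in buffer with cycloheximide, which holds ribosomes on the mRNA, and both come from the same single cell line. The labels do not say whether the 2 samples of a group were separate cultures, so the spread behind each p-value is that between these samples alone and may be technical.

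SR proteins bind short motifs in exons through an RNA recognition motif and recruit the splicing machinery through a tail rich in arginine and serine, which SRPK and CLK kinases phosphorylate. Several of them also carry mRNA out of the nucleus by handing it to the export receptor NXF1. The mRNAs of this family are known for conserved poison exons, whose inclusion brings an early stop codon and decay of the message, and many SR proteins limit their own level, or that of a relative, in this way. The counts are per gene and do not separate transcripts with a poison exon from those without.

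Tra2b rose and Srsf7 fell in 1-nitropyrene cells, while the other 5 SR genes did not pass the test. Tra2b, a serine- and arginine-rich factor that binds GAA-rich exonic enhancers and favours exon inclusion, was 1.78-fold higher. Srsf7, a splicing and export factor that has a zinc knuckle beside its RNA recognition motif, dropped to 0.692 of its control level. Of all 7719 genes tested, 1332 were called at an adjusted p under 0.05 (17.3%), 747 of them higher (9.68%) and 585 lower (7.58%), against 1 higher and 1 lower among the 7 SR genes (edgeR quasi-likelihood test, Benjamini-Hochberg adjusted over all genes tested). With so few members, these counts do not set the SR genes apart from the other genes. The total number of calls was 765 without control replicate 1, 742 without control replicate 2, 572 without 1-nitropyrene replicate 2 and 834 without 1-nitropyrene replicate 3, and the DESeq2 Wald test called 318 of the 2674 genes to which it gave an adjusted p (11.9%).

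The libraries held between 1136145 and 1357034 counts, and 1 count was worth 0.761 to 0.860 CPM (counts scaled by TMM to a library of 1e6). The precision of a change differs between members, since the mean count over the 4 libraries was 1064 for Srsf1, 738 for Srsf3, 386 for Srsf6, 380.75 for Srsf7, 120.75 for Srsf5, 85.25 for Tra2b and 45.75 for Srsf2. Levels are set against each other only within a gene, because the sources used here give no length for the counted features. A footprint level also does not separate more mRNA from denser ribosomes, nor more cells with the mRNA from more mRNA per cell.

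**Figure D1:**
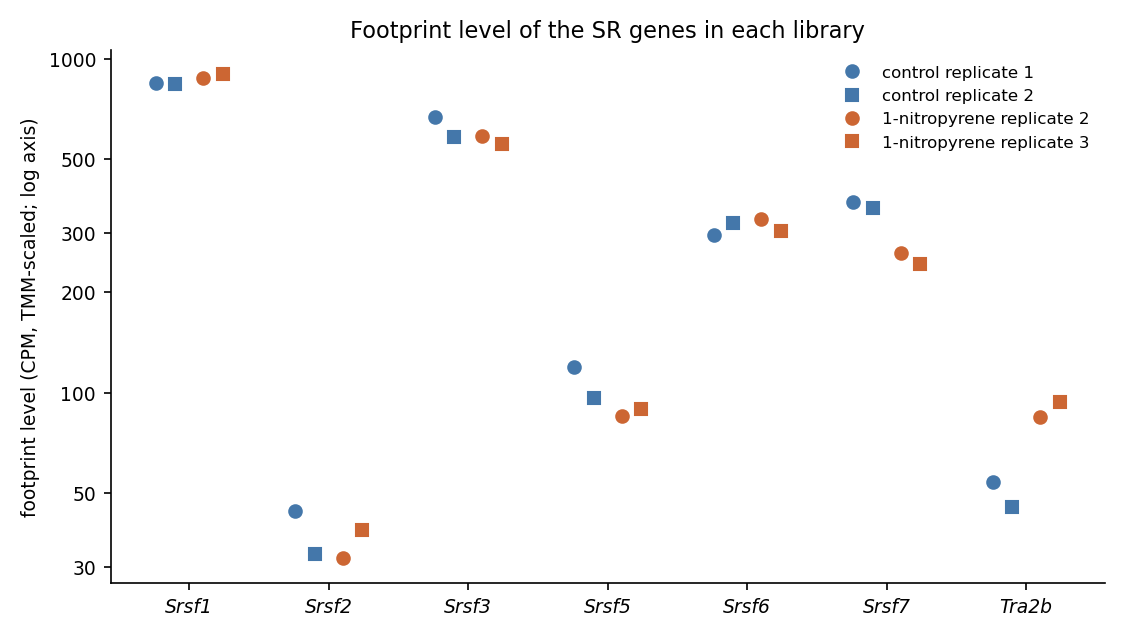
Footprint level in CPM (vertical log axis) of each SR gene in each library; blue marks are the 2 control libraries and orange marks the 2 libraries of 1-nitropyrene cells, and heights are to be read within a gene. The orange marks lie above the blue ones for Tra2b (84.3 and 93.5 against 54.0 and 45.6 CPM) and below them for Srsf7 (262 and 242 against 372 and 357 CPM).

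Tra2b (ENSMUSG00000022858; GRCm38.p6, chr16:22244552-22266005) was counted 71 and 54 times in control replicates 1 and 2, then 98 and 118 times in replicates 2 and 3 of the 1-nitropyrene cells. After scaling these were 54.0 and 45.6 CPM in control cells and 84.3 and 93.5 CPM in 1-nitropyrene cells. Both 1-nitropyrene libraries were high and the groups did not overlap. The mean rose from 49.8 ± 5.97 to 88.9 ± 6.46 CPM (SD, n = 2 each), a log2 fold change of 0.83 ± 0.20 (SE; 95% interval 0.43 to 1.23; edgeR adjusted p = 0.000792). Of all genes tested, 94.5% had a lower log2 fold change. The DESeq2 Wald test gave a log2 fold change of 0.85 ± 0.32 (SE) for Tra2b with an adjusted p of 0.0619, so the call was lost there; over the 11 alternatives the adjusted p ran from 0.000602 to that value.

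Srsf7 (ENSMUSG00000024097; chr17:80200080-80207369) was counted 489 and 423 times in control cells, against 305 and 306 times in 1-nitropyrene cells. The scaled levels were 372 and 357 CPM in control cells against 262 and 242 CPM in 1-nitropyrene cells. Both 1-nitropyrene libraries lay below both controls, and replicates of a group were close to each other. The mean of 364 ± 10.7 CPM in control cells was followed by 252 ± 14.2 CPM in 1-nitropyrene cells (SD, n = 2 each). Srsf7 thus fell by 0.53 on the log2 scale (SE 0.093; 95% interval -0.71 to -0.35; edgeR adjusted p = 5.18e-07). Of all genes tested, 16.4% had a lower log2 fold change. The fall passed the threshold under each of the 11 alternatives, with log2 fold changes from -0.69 to -0.47 and adjusted p of at most 0.00835.

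**Figure D2:**
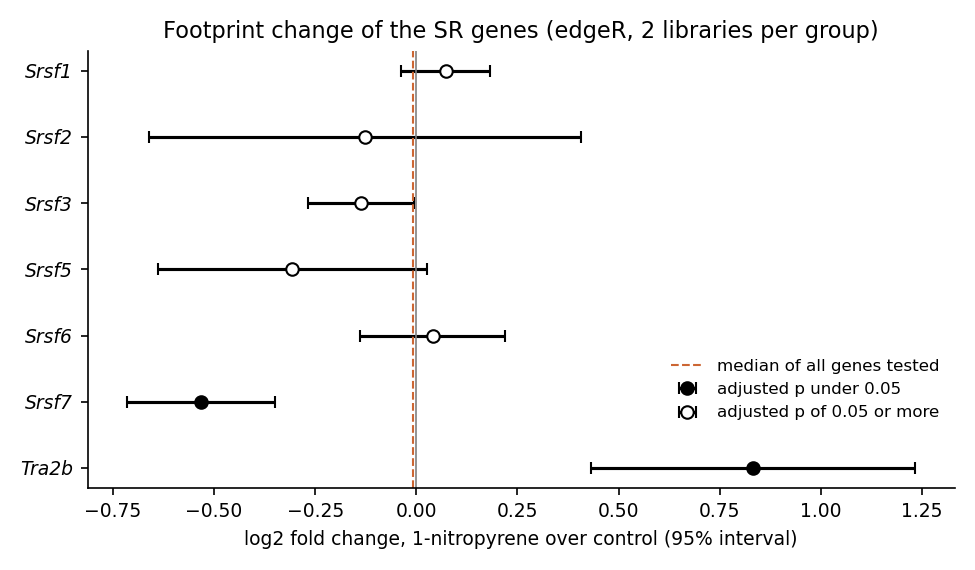
Log2 fold change of 1-nitropyrene over control (horizontal axis) for each SR gene, with its 95% interval from the edgeR fit; filled points passed an adjusted p of 0.05, and the dashed line is the median of all genes tested, -0.0076. Tra2b at 0.83 and Srsf7 at -0.53 are the filled points, and the interval of Srsf2 is the widest, from -0.66 to 0.41.

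The bases upstream of these 2 called genes are shown because they changed in opposite directions. They were taken from the RefSeq promoter table of build GRCm38.p6, in which all 7 members were found, and end just before the first annotated base of the gene. Each runs 5′ to 3′ on the gene's strand, which is the minus strand for both, and capitals mark the letters GGGCGG (a GC box), TGACG (the core of a cAMP response element) and GCGTG (the core of the xenobiotic response element bound by the aryl hydrocarbon receptor) on either strand.
Tra2b, chr16:22266006-22266255: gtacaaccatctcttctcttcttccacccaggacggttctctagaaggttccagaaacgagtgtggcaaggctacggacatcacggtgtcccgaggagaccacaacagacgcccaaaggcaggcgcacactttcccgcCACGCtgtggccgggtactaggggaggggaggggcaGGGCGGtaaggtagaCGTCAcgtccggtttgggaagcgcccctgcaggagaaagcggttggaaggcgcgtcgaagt
Srsf7, chr17:80207370-80207555: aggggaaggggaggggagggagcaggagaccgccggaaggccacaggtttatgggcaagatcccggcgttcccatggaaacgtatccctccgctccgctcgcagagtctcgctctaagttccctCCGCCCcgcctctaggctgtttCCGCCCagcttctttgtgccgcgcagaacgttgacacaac

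The Tra2b stretch holds 1 match to each of the 3 motifs, with first bases at -112 (GCGTG), -76 (GGGCGG) and -61 (TGACG) from the start site. The Srsf7 stretch holds GGGCGG on its reverse strand at -126 and -104 from the listed start site, which lies 64 bases inside the annotated gene, and neither of the other motifs. In the whole windows of 300 bases (250 before the start and 50 from it on), GGGCGG was found in 6 of the 7 SR genes (not in Srsf3) and in 35.7% of all 32851 windows. The windows of Srsf1 and Srsf2 lie wholly inside the annotated gene, as their listed start sites are 874 and 581 bases within it. TGACG was in 6 of 7 (not in Srsf7) against 20.8% of all windows, and GCGTG in 4 of 7 (Srsf1, Srsf3, Srsf6 and Tra2b) against 32.4%. TATAAA was found in Srsf2 and Srsf3 (13.6% of all windows), CCAAT in Srsf1, Srsf2 and Srsf3 (37.4%), and TGACNNNGC, the core of the antioxidant response element, in Srsf2, Srsf3 and Srsf6 (12.4%). The palindromes TGACGTCA, which contains TGACG, and CACGTG were in 0 of the 7 windows, against 1.79% and 7.15% of all windows. TGACNNNGC can share its first bases with TGACG. The windows of the SR genes were rich in G and C, at 56 to 70% against a median of 52.7% over all windows, and held 20 to 45 CG dinucleotides against a median of 7. The motifs marked in capitals above each contain this dinucleotide. The lowest of the SR percentages, 56%, was reached by 40.3% of all windows. The background was not limited to tested genes or to windows of like base content. Whether the motif shares of the SR genes differ from those of other genes with windows of like content was therefore not tested. Such matches describe the letters of these windows, and no binding was measured.

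Srsf1 (ENSMUSG00000018379; chr11:88046499-88053757), the founding member of the family and a factor in constitutive and alternative splicing, had 1112 and 995 counts in control cells and 1016 and 1133 in 1-nitropyrene cells. Its levels were 846 and 839 CPM in control cells and 874 and 897 CPM in 1-nitropyrene cells. The groups did not overlap, but the gap between them was small: the log2 fold change was 0.072 ± 0.056 (SE; 95% interval -0.037 to 0.18; edgeR adjusted p = 0.399). The interval of the fold itself ran from 0.975 to 1.13. The means were 843 ± 4.49 and 886 ± 16.4 CPM (SD, n = 2 each).

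Srsf3 (ENSMUSG00000071172; chr17:29032660-29043372) encodes the smallest of the classical SR proteins and, like Srsf7, an adaptor for mRNA export; how reads shared with its pseudogene Srsf3-ps were counted is not known. It had 881 and 689 counts in control cells and 680 and 702 in 1-nitropyrene cells, or 670 and 581 CPM against 585 and 556 CPM. Control replicate 1 was the high library, and control replicate 2 lay within the range of the 1-nitropyrene libraries. The log2 fold change was -0.14 ± 0.067 (SE; 95% interval -0.27 to -0.0054), with an unadjusted p of 0.0412 that did not pass after adjustment (edgeR adjusted p = 0.146). Without control replicate 1 the log2 fold change of Srsf3 was -0.028 (edgeR adjusted p = 0.892), the highest adjusted p over its 11 alternatives, and without control replicate 2 it was -0.23 (edgeR adjusted p = 0.0651). The lowest, 0.000164, came with total counts.

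Srsf5 (ENSMUSG00000021134; chr12:80945495-80950507), which binds exonic enhancers and is known as a growth-induced gene of regenerating liver, had 157 and 114 counts in control cells and 99 and 113 in 1-nitropyrene cells. Its levels were 119 and 96.2 CPM against 85.2 and 89.5 CPM. The groups did not overlap, though control replicate 2 was nearer to the 1-nitropyrene libraries than to control replicate 1. The log2 fold change was -0.31 ± 0.17 (SE; 95% interval -0.64 to 0.026; edgeR adjusted p = 0.208). Without control replicate 1 the log2 fold change of Srsf5 was -0.14 (edgeR adjusted p = 0.765) and without control replicate 2 it was -0.44 (0.178), and the adjusted p over the 11 alternatives ran from 0.0350 with total counts to 0.765.

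Srsf6 (ENSMUSG00000016921; chr2:162931508-162937121), a regulator of alternative exons studied in skin, had 390 and 383 counts in control cells and 385 and 386 in 1-nitropyrene cells. The scaled levels of 297 and 323 CPM in control cells and 331 and 306 CPM in 1-nitropyrene cells overlapped. The log2 fold change was 0.040 ± 0.092 (SE; 95% interval -0.14 to 0.22; edgeR adjusted p = 0.824). Its depth was close to that of Srsf7, with a like standard error, and the intervals of the 2 genes' changes lay apart.

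Srsf2 (ENSMUSG00000034120; chr11:116849897-116853675), a factor of the nuclear speckles where splicing factors are stored, rested on the fewest counts, 58 and 39 in control cells and 37 and 49 in 1-nitropyrene cells. These were 44.1 and 32.9 CPM in control cells and 31.8 and 38.8 CPM in 1-nitropyrene cells, and the groups overlapped. The log2 fold change was -0.13 ± 0.27 (SE; edgeR adjusted p = 0.810), with a 95% interval from -0.66 to 0.41. In folds this interval ran from 0.633 to 1.33, which includes both no change and a change of the size seen in Srsf7 (0.692).

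**Figure D3:**
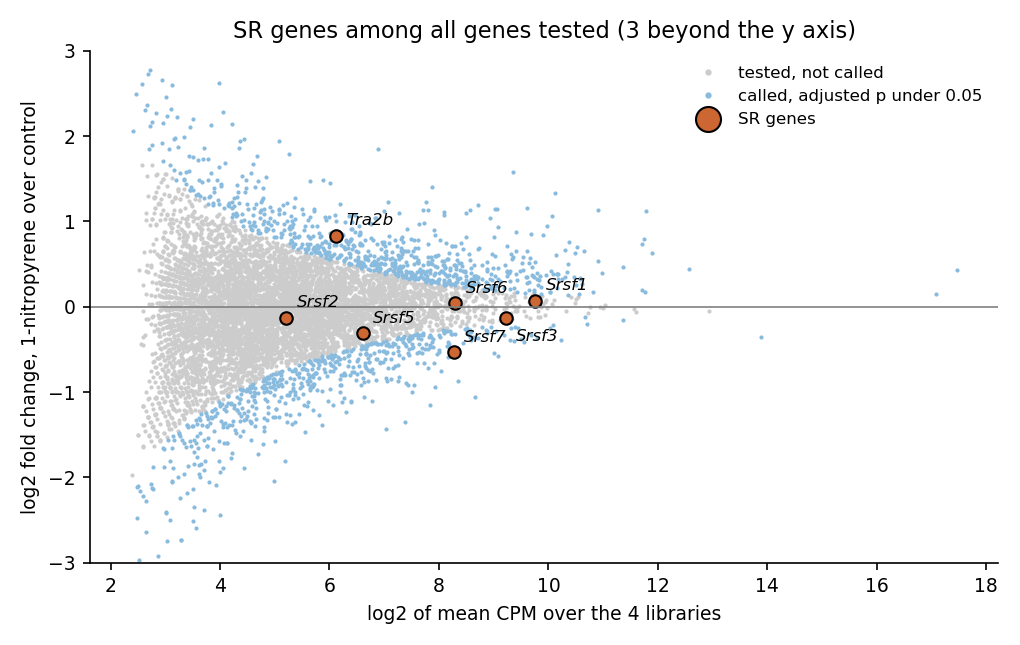
Each point is 1 of the 7719 genes tested, with the log2 of its mean CPM over the 4 libraries on the horizontal axis and its log2 fold change on the vertical axis; 3 genes lie beyond the vertical axis, blue points were called and orange points are the SR genes. Tra2b and Srsf7 lie on the edge of the grey points or outside them, while Srsf1, Srsf2, Srsf3, Srsf5 and Srsf6 lie among genes that were not called.

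As a group, the SR genes did not move in 1 direction. The log2 fold change was above 0 for 3 of the 7 (Srsf1, Srsf6 and Tra2b) and below 0 for 4, with a median of -0.13 against -0.0076 over all genes tested. The median over the members was -0.022 without control replicate 1, -0.23 without control replicate 2 and -0.0022 without 1-nitropyrene replicate 2. The CPM of the 2 groups did not overlap for 4 of the 7, Srsf1 and Tra2b higher and Srsf5 and Srsf7 lower, while 57.3% of all genes tested did not overlap (28.6% higher and 28.7% lower), so this share is near the background.

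The summed counts of the 7 genes came to 3158 and 2697 in control cells, against 2620 and 2807 in 1-nitropyrene cells. This was 0.250% (95% exact Clopper-Pearson interval 0.242 to 0.259%) and 0.237% (0.229 to 0.247%) of all counts for control replicates 1 and 2. It was 0.211% (0.203 to 0.219%) and 0.207% (0.199 to 0.215%) in 1-nitropyrene replicates 2 and 3, below both controls. With total counts the log2 difference of the sum was -0.22, against a median log2 fold change of -0.17 over all genes tested. The intervals cover counting error only, as the fragments may include PCR copies. After TMM scaling the sums were 2402 and 2275 CPM in control cells and 2254 and 2223 CPM in 1-nitropyrene cells, so the gap between the groups was smaller after scaling than in the shares. The mean of the sum moved from 2339 ± 89.5 to 2239 ± 22.0 CPM (SD, n = 2 each), with a log2 difference of -0.062. This was -0.024 without control replicate 1 and -0.095 without control replicate 2. An exact two-sided permutation test of 2 against 2 libraries cannot go below p = 0.333, so the sum was not tested.

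The choice of scaling shifts all genes nearly alike. With total counts in place of TMM, the median log2 fold change of all genes tested moved from -0.0076 to -0.17, and 410 genes were called higher and 1098 lower. Srsf3 (-0.30, adjusted p = 0.000164) and Srsf5 (-0.47, adjusted p = 0.0350) then joined Srsf7 (-0.69) as called lower, in edgeR's test, while Tra2b (0.67, adjusted p = 0.00989) stayed called higher. Srsf1 and Srsf6 turned to -0.089 and -0.12, neither of them called. Relative to the median of all genes tested, the changes were the same under both scalings to 2 decimals: 0.84 for Tra2b, -0.52 for Srsf7, -0.30 for Srsf5, -0.13 for Srsf3, -0.12 for Srsf2, 0.048 and 0.047 for Srsf6, and 0.080 for Srsf1.

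Ratios of counts between SR genes within a library do not depend on the scaling; they are compared between libraries and say nothing of which gene is at the higher level. The ratio of Srsf7 to Tra2b counts was 6.89 and 7.83 in control cells, against 3.11 and 2.59 in 1-nitropyrene cells. This is a log2 difference of -1.37 between group means of 2.88 ± 0.13 and 1.51 ± 0.19 (SD, n = 2 each). The pair joins the member called higher to the member called lower, so its separation follows from that choice and is given as a description. The ratio of Srsf5 to Tra2b went from 2.21 and 2.11 to 1.01 and 0.958. Srsf6 over Srsf7 was 0.798 and 0.905 in control cells and 1.26 in both 1-nitropyrene libraries. These 2 pairs each hold a called member, so they restate its change and are a description too. The groups did not overlap for all 6 ratios with Tra2b, all 6 with Srsf7, and 5 of the 10 without either gene. Srsf7 over Tra2b is in both sets of 6, and every ratio with Tra2b or Srsf7 carries that gene's own change. No such share was computed for ratios of other genes. Of single genes tested, 57.3% did not overlap, so these counts are a description only. Srsf1 over Srsf6, a pair with no called member, overlapped between the groups, at 2.85 and 2.60 against 2.64 and 2.94. Srsf1 over Srsf5, also without a called member, did not overlap, at 7.08 and 8.73 against 10.3 and 10.0. The 21 possible ratios share genes and were not tested, since with 2 libraries per group an exact permutation test cannot go below p = 0.333.

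**Figure D4:**
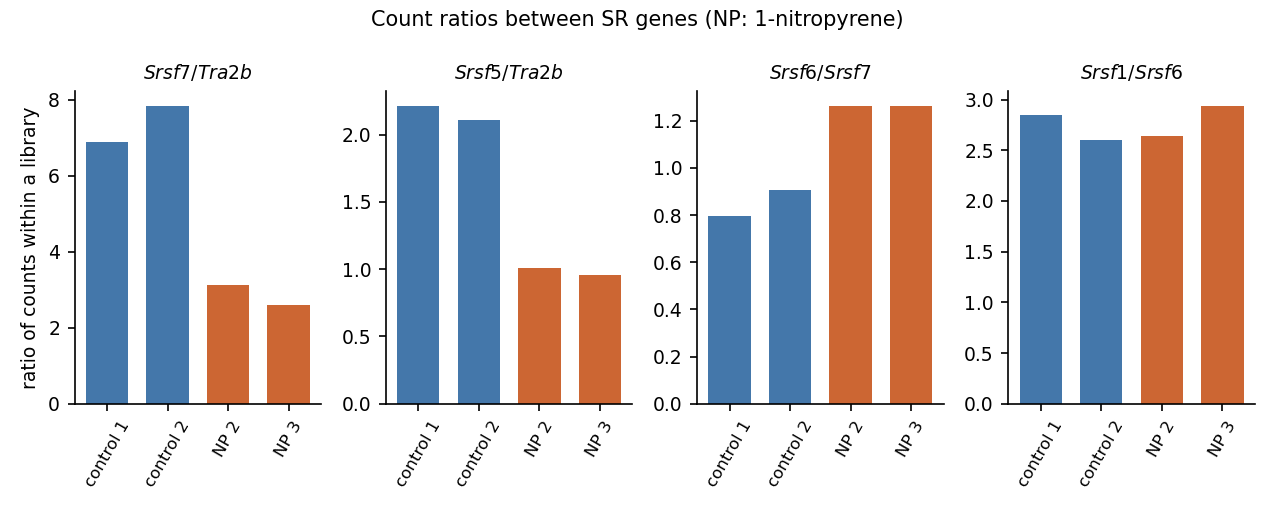
Bars give the ratio of counts between pairs of SR genes within each library (vertical axis, from 0; each panel has its own scale), in blue for control and orange for 1-nitropyrene (NP) libraries. Srsf7/Tra2b falls from 6.89 and 7.83 to 3.11 and 2.59, whereas Srsf1/Srsf6 stays between 2.60 and 2.94 in all 4 libraries. Srsf1/Srsf6 is 1 of 10 pairs without Tra2b or Srsf7, of which 5 did not overlap between the groups.

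Within the summed counts of the 7 genes, the share of Tra2b was 2.25% and 2.002% in control cells (95% exact Clopper-Pearson intervals 1.76 to 2.83% and 1.51 to 2.60%). In 1-nitropyrene cells the Tra2b share was 3.74% and 4.204% (3.05 to 4.54% and 3.49 to 5.01%). The share of Srsf7 was 15.5% and 15.7% in control cells (14.2 to 16.8% and 14.3 to 17.1%) and 11.6% and 10.9% in 1-nitropyrene cells (10.4 to 12.9% and 9.77 to 12.1%). These intervals, too, cover counting error only. The share of Srsf1 was 35.2% and 36.9% in control cells (33.5 to 36.9% and 35.1 to 38.7%). In 1-nitropyrene cells the Srsf1 share was 38.8% and 40.4% (36.9 to 40.7% and 38.5 to 42.2%). The interval of control replicate 2 overlapped those of the 1-nitropyrene libraries. The Srsf5 share was 4.97% and 4.23% in control cells and 3.78% and 4.03% in 1-nitropyrene cells, with overlapping intervals. The shares of Srsf2, Srsf3 and Srsf6 overlapped between the groups. Those of Tra2b and Srsf7 restate their own changes and are a description. A share also depends on the counts of the other members, and the changes of Srsf1 and Srsf5 themselves were not called with TMM scaling.

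Genes near the mean profile of the 7 SR genes were sought, with log2 CPM centred on each gene's mean. Nearness was the Euclidean distance to the mean centred profile over the 4 libraries. Among 3236 other genes averaging 50 counts or more, the nearest were ENSMUSG00000020840 (distance 0.014) and ENSMUSG00000057522 (distance 0.034), for which the tables used here give no symbol. The mean profile was nearly flat, at 0.089 and -0.072 in control cells and -0.026 and 0.0085 in 1-nitropyrene cells. It averages members that changed in opposite directions, so a gene near it need not be like any single member. ENSMUSG00000020840 had 725, 592, 595 and 661 counts in the same order and a log2 fold change of -0.023 (edgeR adjusted p = 0.882). Tra2b and Srsf7, the called members, lay farthest from the mean of the members, at distances of 0.863 and 0.529, while the other 5 lay between 0.139 and 0.299. Of the 3236 other genes, 94.4% lay nearer to this mean than Tra2b, 72.0% nearer than Srsf7, and 5.01 to 30.9% nearer than the other 5. Each member is part of this mean, which draws the member nearer, and the other genes are not. As the mean is nearly flat, the distances of Tra2b and Srsf7 largely restate their changes. Srsf2, with a mean count of 45.75, would not have met the limit of 50 set for the other genes. These shares are therefore a description only.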

How the data were processed

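The authors deposited whole-number footprint counts per Ensembl gene ID, not normalized, with 1 column for each of the 4 libraries and 0 other sample columns. The submitters' processing notes name the build mm10 and the programs DESeq2, featureCounts, HISAT2, Bowtie and cutadapt, with no versions. The annotation, any selection of fragment length, and the treatment of strand and of reads with several matches are not stated there. SR genes have related copies, among them the pseudogene Srsf3-ps, so their counts may share reads with these.

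Symbols of the 7 IDs came with the definition of the gene set. The gene table (GRCm38.p6, 49997 genes) gives an Ensembl ID for 0 genes. It supplied the coordinates of the 7 genes by symbol. Lists fixed by symbol (other SR proteins, SR kinases and import, hnRNP proteins, splice site recognition, nonsense-mediated decay, lung cell markers) were therefore not analysed here, and the cell type was not checked. The members and lists were chosen with earlier results of these data known, and the motifs and the ratios between genes were chosen after the values were seen.

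Genes were kept with filterByExpr (minimum count 10, minimum total 15; 7719 genes, 98.6% of counts), scaled with TMM and tested with edgeR's quasi-likelihood F test without covariates (R 4.3.3, edgeR 4.0.16), with calls at an adjusted p under 0.05 (Benjamini-Hochberg). Standard errors and 95% intervals were derived from the log2 fold change and the F statistic. All 7 members were named and all passed the filter. The genes nearest to their mean profile were limited to 2 IDs. Alternatives were DESeq2 size factors, total counts, scaling without the 2 gene IDs with the most counts, no filter, 5 CPM in 2 libraries, the DESeq2 Wald test (1.42.0), limma-voom (3.58.1) and leaving out each library.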

Additional observations from a re-analysis of the deposited data

How the results depend on the processing

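Srsf7 and Tra2b kept their direction under all 11 alternatives, and their calls under all 11 and under 10 of them. Total counts gave 410 genes higher and 1098 lower. With them 3 SR genes were called lower, with log2 fold changes of -0.30 for Srsf3 and -0.47 for Srsf5 beside Srsf7. Srsf1 turned to -0.089 and Srsf6 to -0.12, the median of the 7 was -0.29 and the log2 difference of their sum -0.22. With the DESeq2 Wald test 318 of 2674 genes passed (239 higher, 79 lower), and 0 SR genes were called higher: Tra2b had a log2 fold change of 0.85 and an unadjusted p of 0.0082, the 1 SR gene that was higher at an unadjusted p under 0.05, where edgeR and limma-voom called it. DESeq2 gave no adjusted p for Srsf2. Fits without 1 library, which take the remaining sample of that group to be as variable as the other 2, gave 572 to 834 called genes (382 to 480 higher, 190 to 354 lower). It gave log2 fold changes of -0.31 to 0.11 for Srsf2 and -0.022 to 0.11 for Srsf6, neither called. Srsf2 turned upward without control replicate 1 (0.11) or 1-nitropyrene replicate 2 (0.020), and Srsf6 downward without the same libraries (-0.022 and -0.0022). The median of the 7 then ran from -0.23 to -0.0022. The cause of these shifts was not tested. No paired analysis was possible because a single replicate number, 2, occurs in both groups. The low counts of Srsf2, 37 to 58 per library, limit what can be seen for it.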
